A study of Mus musculus with 360 samples.

Results

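Chemokines, interleukins, colony-stimulating factors and their receptors are the signals by which cells of a tissue recruit and instruct leukocytes. The targeted panel read here holds 48 probes for 42 of these genes among 3154 probes for 2756 genes. They were taken by symbol, as every gene whose name begins with Ccl, Ccr, Csf or Il followed by a digit, or with Cxcl or Cxcr; Ccl2, Ccl7 and Il6 were left aside. By role they were 18 probes for chemokine ligands, 10 for chemokine receptors, 11 for interleukins and 9 for interleukin or colony-stimulating factor receptors, receptor subunits and other proteins named after an interleukin. Of the genes, 5 had several probes.

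The probes were counted in lung, heart, left lobe of the liver, kidney and ovary of female B6D2F1 mice, 9 weeks old, with tissues taken on study day 5. Mice of one series received 1,2-dichlorobenzene (1,2-DCB) at 0, 1, 10, 30, 100 or 250 ppm (37 animals), and those of the other 1,4-dichlorobenzene (1,4-DCB) at 0, 1, 10, 50, 150 or 400 ppm (35 animals). These isomers carry their second chlorine at different places on the ring, and the route of exposure is not given in the sources used here. Of 360 libraries, one per animal and tissue, the 326 that the labels mark as used were analysed, and the 34 others were brought back as an alternative. Heart and ovary had 10 animals at 0 ppm in each series, 7 at 250 ppm and 5 at every other concentration, and lung had 10 at 0 ppm and 4 to 6 at each concentration. In liver, 0 ppm was represented by 9 animals for 1,2-DCB and 7 for 1,4-DCB, 1 ppm 1,2-DCB by 2 and each further group by 4 to 6; in kidney, 0 ppm by 5 and 6 and each exposed group by 2 to 6.

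Chemokines are small secreted proteins that draw leukocytes along a gradient by way of receptors coupled to G proteins. CC ligands mostly act on monocytes, T cells and dendritic cells, and the CXC ligands Cxcl1, Cxcl2, Cxcl3 and Cxcl5 on neutrophils by way of Cxcr2. Interleukins act through receptors that signal to the nucleus mainly by JAK kinases and STAT factors, or, in the interleukin-1 family, by MyD88 and NF-kappaB. In liver the resident macrophages, and in lung the alveolar macrophages and the airway epithelium, are known sources of these signals.

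The start regions of several ligand genes hold a motif of the NF-kappaB type. RefSeq's promoter sequences on GRCm38.p6 run from 250 bases before to 50 bases after each start, and only the 250 bases before it were searched. There the NF-kappaB-type motif GGANTTTCC, read on both strands, stood in 4 of the 41 promoters held for 32 member genes, 9.76%. Of all 32851 promoters, 350 held it, 1.07%. The matches began 70 bases before the start of Cxcl1, 72 before that of Cxcl3, 96 before that of Cxcl2 and 158 before that of Cxcl10. Cxcl1, Cxcl2 and Cxcl3 lie close together on chromosome 5, so their matches need not be independent. Windows with the motif (Cxcl1, Cxcl2 and Cxcl10) are printed beside those of Ccl12 and Ccl3, which held none, because Cxcl1, Cxcl10, Ccl12 and Ccl3 are ligands whose changes are described further on and Cxcl2 is the neighbour of Cxcl1. Each window is 5′ to 3′ on the gene's strand, and capitals mark the motif.
Cxcl1 (chr5:90891085-90891244, plus strand): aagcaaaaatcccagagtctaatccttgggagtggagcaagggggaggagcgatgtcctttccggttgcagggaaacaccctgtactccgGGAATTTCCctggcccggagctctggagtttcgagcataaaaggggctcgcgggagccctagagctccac
Cxcl2 (chr5:90903739-90903898, plus strand): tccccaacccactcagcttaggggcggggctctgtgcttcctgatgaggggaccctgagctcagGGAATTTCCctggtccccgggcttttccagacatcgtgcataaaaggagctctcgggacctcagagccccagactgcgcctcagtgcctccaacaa
Cxcl10 (chr5:92348890-92349049, minus strand): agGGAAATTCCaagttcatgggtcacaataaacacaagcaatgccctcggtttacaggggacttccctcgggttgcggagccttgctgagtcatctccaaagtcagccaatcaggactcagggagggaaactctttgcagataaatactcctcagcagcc
Ccl12 (chr11:82101685-82101844, plus strand): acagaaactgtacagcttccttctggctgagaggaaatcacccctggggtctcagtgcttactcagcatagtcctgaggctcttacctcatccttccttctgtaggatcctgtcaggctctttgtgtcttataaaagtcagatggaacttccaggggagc
Ccl3 (chr11:83649379-83649538, minus strand): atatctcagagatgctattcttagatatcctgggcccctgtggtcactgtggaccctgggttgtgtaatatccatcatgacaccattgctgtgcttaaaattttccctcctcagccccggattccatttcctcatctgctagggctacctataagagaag
A match is a description of these letters only, and a window without one says nothing of the factor. Of the genes with the motif, Cxcl1 was called higher in heart and Cxcl10 lower in liver. Cxcl2 was tested in lung and ovary without a call, and Cxcl3 was too low to test. Whether the 4 moved together was not tested.

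The median library held 20.1 M counts in lung, 19.4 in liver, 12.5 in kidney, 12.3 in heart and 5.93 in ovary, so low probes were read least precisely in ovary. Each tissue carried its own markers; at 0 ppm 1,2-DCB the summed hepatocyte markers had a median of 130652 CPM (counts per M of the library) in liver, and the cardiac muscle markers one of 274412 CPM in heart. In 12 libraries the sum of some cell type marker list stood over 10 times the tissue median, 6 of them from heart. They include the heart library of animal 405 at 150 ppm 1,4-DCB, with smooth muscle markers at 820 CPM against a tissue median of 74.9. They also include the liver library of control animal 4 of 1,2-DCB, with neutrophil markers at 2272 CPM against 202. Several results that rest on such a library are given with and without it. Nothing in the labels says that animals of a group were exposed or processed separately, so p values measure the spread between these animals.

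Exposed animals were set against the unexposed ones of the same series, concentration by concentration, by edgeR's quasi-likelihood test with Benjamini-Hochberg adjustment over all probes of the tissue, and a member is called where the adjusted p was under 0.05; every adjusted p below is from this test. Concentrations of a series share their controls. Of the 48 probes, 42 were high enough to test in at least 1 tissue and 26 in all 5. The 6 never tested were Cxcl3, Il10, Il12b, Il20 and the weaker probes of Ccl22 and Il4. Of the tested probes, 27, for 26 genes, were called in at least 1 contrast, which made 74 calls in 50 contrasts, 4.51% of 1640 member tests, where 5.08% of all tests passed. The members were thus called about as often as the panel as a whole. By role, 11 of 16 tested chemokine ligand probes, 7 of 10 chemokine receptor probes, 4 of 7 interleukin probes and 5 of 9 probes of the receptor and other group were called somewhere. The called chemokine receptor probes went 1 way each, 5 lower and 2 higher, the latter both of Ccr2. By contrast, 4 ligands rose in one tissue or concentration and fell in another. The share of all probes called in at least 1 contrast was not counted, so the 27 probes and the counts by role have no background.

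Liver held 34 of the 74 calls, lung 23, heart 13 and ovary 4. At 250 ppm 1,2-DCB, 14 of 31 members were called, 6 higher and 8 lower, where 49.8% of all probes passed, 25.1% higher and 24.6% lower. Under 1,4-DCB at 400 ppm, 11 of 31 were called, all lower, where 31.6% passed, 18% higher and 13.6% lower. At the lower concentrations of 1,2-DCB the liver counts were 1 at 10 ppm against 5.34% of all probes, 4 at 30 ppm against 11.7%, and 3 at 100 ppm against 18.8%. At 150 ppm 1,4-DCB the count was 1, against 5.96%. The members' median log2 change at 400 ppm was -0.39, against -0.03 over all probes, and 0.02 against -0.02 at 250 ppm 1,2-DCB.

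In lung, 250 ppm 1,2-DCB called 10 of 41 members, 3 higher and 7 lower, against 32.6% of all probes, 17.6% higher and 15% lower. The counts were 4 at 10 ppm against 1.89% of all probes, 5 at 30 ppm against 4.57%, and 3 at 100 ppm against 6.53%. Under 1,4-DCB, 400 ppm called 1 member, against 2.61%. In heart, 4 of 27 members were called at 250 ppm 1,2-DCB against 8.88% of all probes, 6 at 150 ppm 1,4-DCB against 27.2%, and 3 at 400 ppm against 13%. In ovary, 4 of 33 were called at 250 ppm 1,2-DCB, against 15.9%.

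In kidney, edgeR called 0 of 32 members at 250 ppm 1,2-DCB, where 11.7% of all probes passed; DESeq2 called 0, and 0 had an unadjusted p under 0.05. For 400 ppm 1,4-DCB edgeR and DESeq2 both called 0, against 1.03%, while 5 had an unadjusted p under 0.05. In ovary at 400 ppm 1,4-DCB the counts were 0 by edgeR, 0 unadjusted and 0 by DESeq2, against 0.479%. In the other 32 contrasts together, edgeR called 0 of 1038 member tests, where 0.247% of all tests passed; 4 were called by DESeq2 and 89 had an unadjusted p under 0.05. With the libraries brought back that the labels set aside, 6 members were called lower in kidney at 250 ppm 1,2-DCB: Cxcr6, Csf1r, Ccr2_31936, Ccr2_84171, Il1b and Il1r1. Apart from control 5, labelled an outlier, the libraries brought back into these groups are labelled as potential tissue contamination. The share of all probes called in that fit was not counted.

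**Figure D1:**
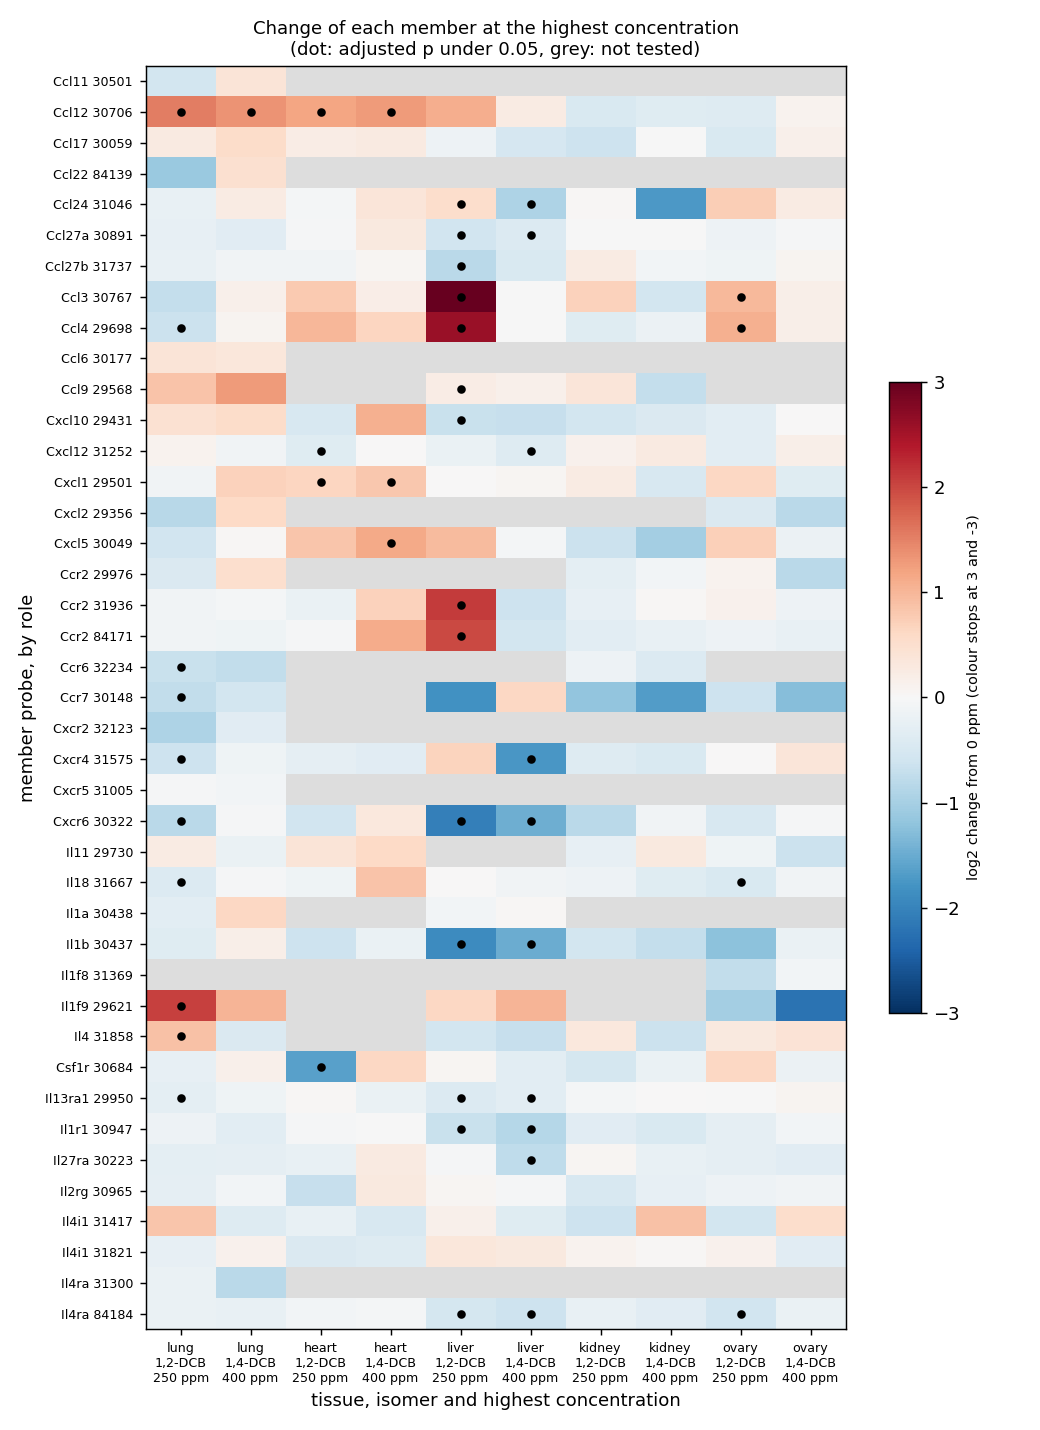
Log2 change of 41 tested member probes from 0 ppm at 250 ppm 1,2-DCB and 400 ppm 1,4-DCB in 5 tissues, as colour that stops at 3 and -3. A dot marks an adjusted p under 0.05 and grey a probe too low to test; the liver columns hold 14 and 10 dots, the kidney columns 0.

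The map of changes at the highest concentrations shows where members moved. The largest rises are those of Ccl3, Ccl4 and Ccr2 in the liver column of 1,2-DCB, and none of them has a dot in the liver column of 1,4-DCB.

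Ccl3 and Ccl4, CC ligands made by activated macrophages and lymphocytes, rose in liver at 250 ppm 1,2-DCB. Ccl3 ran from 0 through a median of 0.289 to 2.35 CPM in 9 control livers. It was 1.38 CPM in animal 501, 8.62 in 503, 5.37 in 505, 1.53 in 506R, 4.86 in 507 and 7.74 in 508. The livers of 503, 505, 507 and 508 thus stood above every control and those of 501 and 506R within the control range. The log2 change was 3.20 ± 0.58 (SE, adjusted p = 5.48e-06).

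Ccl4 ran from 0.194 through 0.794 to 3.58 CPM in the controls. In the exposed livers it was 1.83, 14.2, 6.22, 2.71, 7.40 and 10.3 CPM in the same order of animals. Again 503, 505, 507 and 508 exceeded all controls, with a log2 change of 2.60 ± 0.46 (adjusted p = 3.55e-06). The upper end of both control ranges is animal 4, whose liver stands apart in its neutrophil markers; without it the log2 change was 4.05 for Ccl3 and 3.04 for Ccl4. At 1 to 100 ppm the group means of Ccl3 lay between 0.226 and 0.628 CPM, and no lower concentration was called for either gene. In bulk tissue such as this, more cells of a type and more RNA per cell cannot be told apart.

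Ccr2, the receptor by which monocytes follow Ccl2, Ccl7 and, in mice, Ccl12, rose in the same livers. Its probe Ccr2_31936 ran from 2.02 through 3.04 to 11.2 CPM in the controls and was 5.25, 31.4, 9.26, 2.71, 25.1 and 26.8 CPM in the exposed animals in the same order. Animals 503, 507 and 508 stood above every control and 506R near the control median. The log2 change was 2.10 ± 0.33 (adjusted p = 3.30e-07), and a separate probe, Ccr2_84171, gave 1.98 ± 0.33. Without control animal 4 the 2 probes gave 2.49 and 2.34. Macrophage and monocyte markers moved with them: 6 of 7 tested probes rose, with a median log2 change of 1.68, among them Mmp12, Chil3, Cd68 and Ly6c2. The summed level of that list ran from 378 to 1824 CPM in controls and from 374 to 1695 CPM at 250 ppm, so the ranges overlapped. Lyz2 alone, a gene of that list, ran from 276 to 1527 CPM in the controls, so their sum was largely that of 1 gene. Its highest control, animal 4, was at 1527 CPM against 514 in the next. The sum was not taken without this animal. Mmp12, a macrophage elastase, was 5.25, 34.4, 14.8, 1.2997, 31.1 and 40.0 CPM in the same 6 livers, lowest in 501 and 506R. The part of cell number in the rise was not tested.

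Under 1,4-DCB, whose highest concentration was 400 ppm, the liver means stayed beside those of 0 ppm. Ccl3 averaged 0.458 CPM against 0.485 (log2 change -0.01, adjusted p = 0.994), and Ccl4 0.817 against 0.8285 (-0.02, adjusted p = 0.983). Probe Ccr2_31936 averaged 2.56 CPM against 3.97 (-0.62, adjusted p = 0.236). Macrophage markers were called lower for 1 of 7 probes and higher for 0, and their sum ran from 248 to 304 CPM against 427 to 576 at 0 ppm, without overlap. The concentrations of the series do not match, so no test of the isomers was made here.

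**Figure D2:**
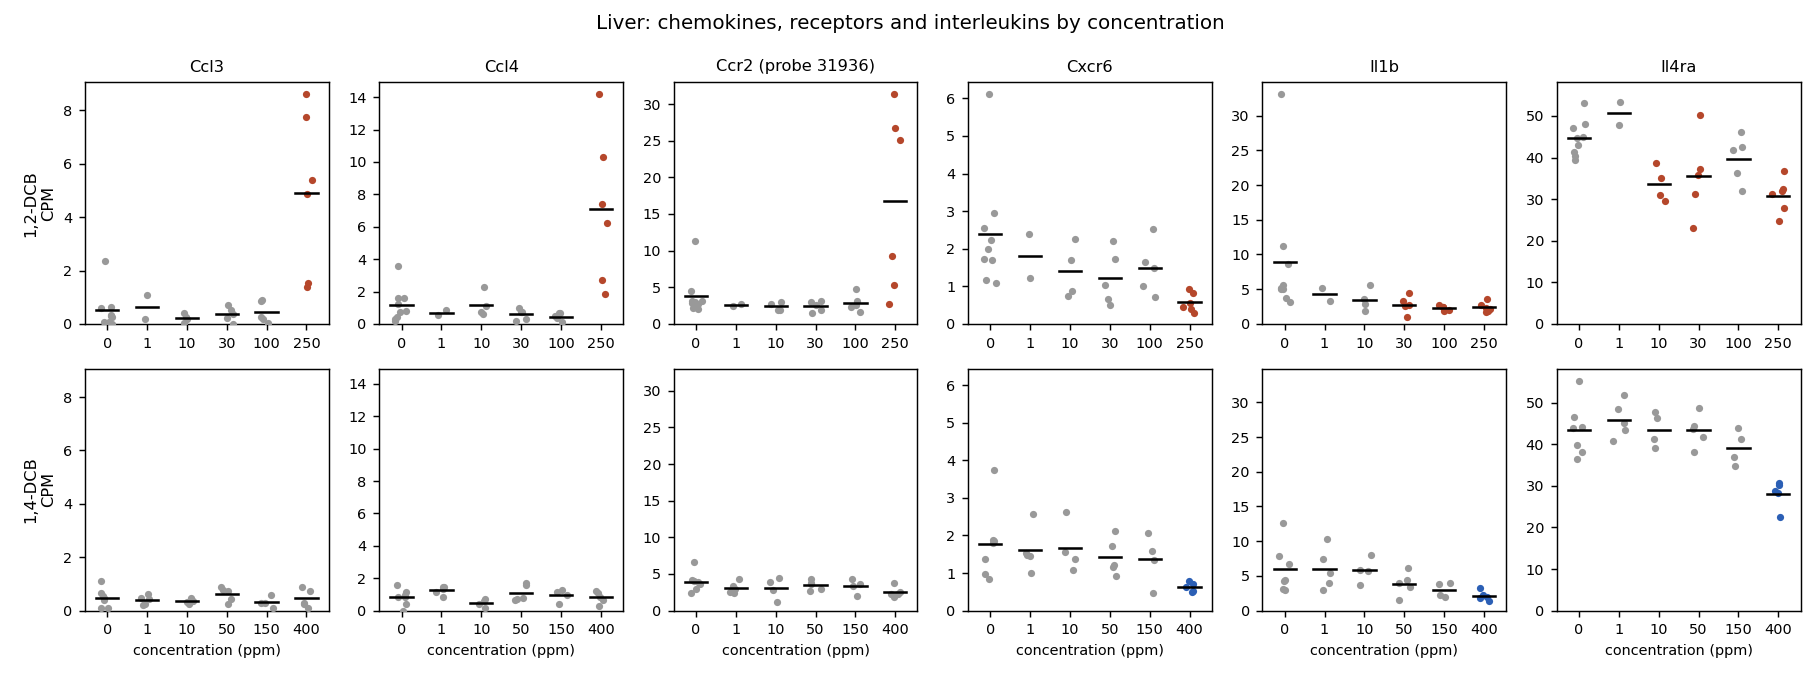
CPM of Ccl3, Ccl4, Ccr2 (probe Ccr2_31936), Cxcr6, Il1b and Il4ra in each liver by concentration of 1,2-DCB (upper row) and 1,4-DCB (lower row). Points are animals, coloured where the concentration was called against 0 ppm, and black lines are means; Ccl3 is at or under 2.35 CPM in all controls and reaches 8.62 CPM at 250 ppm 1,2-DCB.

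The plot of liver members by concentration shows Ccl3, Ccl4 and Ccr2 flat up to 100 ppm, and Cxcr6, Il1b and Il4ra lower at the highest concentration of both isomers.

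Ccl12, also called MCP-5, a mouse ligand of Ccr2, rose at the highest concentration of both isomers in both lung and heart. In lung its controls of 1,2-DCB ran from 8.36 through 13.2 to 30.3 CPM, and the animals at 250 ppm were 34.01, 44.6, 24.5, 95.6, 27.5 and 63.5 CPM (501, 503, 504, 506R, 507 and 508). The lungs of 501, 503, 506R and 508 exceeded every control and those of 504 and 507 lay within the control range. The log2 change was 1.53 ± 0.28 (adjusted p = 1.35e-05). The lungs of animals 501 to 505 at 400 ppm 1,4-DCB were 17.1, 15.2, 41.6, 21.8 and 64.1 CPM against 7.58 to 19.7 CPM at 0 ppm, with a log2 change of 1.36 ± 0.30 (adjusted p = 0.00216). Animals 503, 504 and 505 exceeded every control, and the call ended without animal 505 (0.93, adjusted p = 0.116).

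In heart, Ccl12 was 26.5, 36.5, 21.4, 40.7, 83.5, 34.4 and 33.8 CPM at 250 ppm 1,2-DCB (animals 501, 503 to 505, 506R, 507 and 508), against 6.07 through 11.9 to 60 CPM at 0 ppm. Only 506R, which also had the highest lung value, exceeded the highest control, animal 4. The log2 change was 1.19 ± 0.36 (adjusted p = 0.0252) and 0.90 without 506R (adjusted p = 0.129). The 400 ppm 1,4-DCB hearts were 14.6, 14.6, 29.2, 44.2 and 24.6 CPM against 5.90 to 20.8 CPM, a log2 change of 1.29 ± 0.39 (adjusted p = 0.0206). This call ended without animal 503 (1.22, adjusted p = 0.0707) or 504 (0.99, adjusted p = 0.0883). Ccl12 was not called in liver at 250 ppm, where it averaged 0.966 against 0.449 CPM (log2 change 1.09 ± 0.70, adjusted p = 0.197). In ovary, with control means of 48.0 and 48.5 CPM, the changes at the highest concentrations were -0.38 and 0.11 (adjusted p = 0.409 and 0.955). At no lower concentration was Ccl12 called in any tissue.

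**Figure D3:**
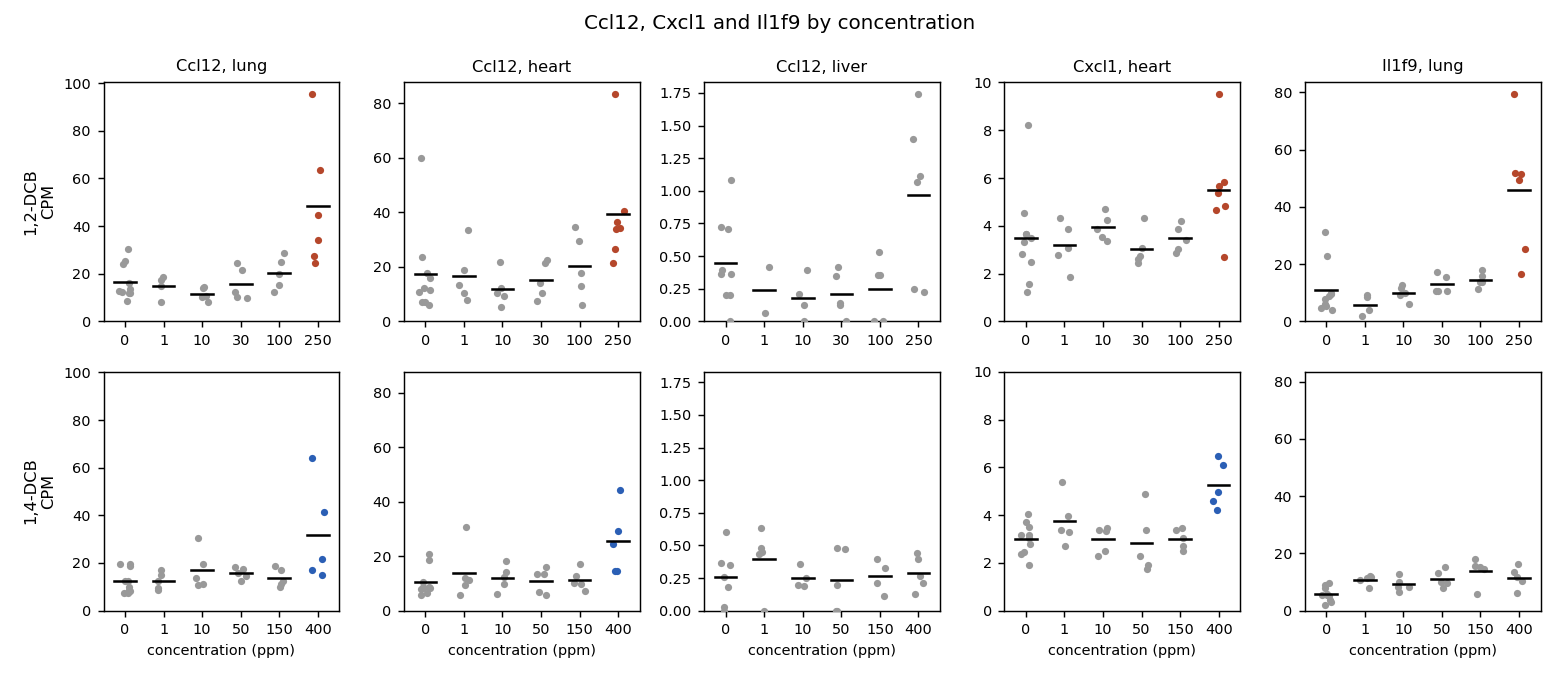
CPM by concentration of 1,2-DCB (upper row) and 1,4-DCB (lower row) for Ccl12 in lung, heart and liver, Cxcl1 in heart and Il1f9 in lung. Points are animals, coloured where called against 0 ppm, and black lines are means; Ccl12 in lung and heart is coloured only at 250 and 400 ppm.

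The plot of Ccl12 beside Cxcl1 and Il1f9 shows the rise at the last step of each series, with wide spread among exposed animals.

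Ccl24, an eosinophil attractant that binds Ccr3, was called in liver under both isomers, lower under one and higher under the other, at concentrations that do not match, so no difference between them was tested. It ran at 400 ppm 1,4-DCB from 5.74 through 6.82 to 8.13 CPM, below all controls at 9.31 through 12.9 to 20.8 CPM (log2 change -0.92 ± 0.25, adjusted p = 0.00280). At 250 ppm 1,2-DCB it ran from 9.27 to 24.5 CPM against 3.20 to 16.4 CPM (0.52 ± 0.22, adjusted p = 0.0411). The rise was not stable: 5 of 7 other alternatives ended it, and it ended without any of controls 4, 7 or 8 or animals 501, 503, 507 or 508, with changes of 0.37 to 0.51 and adjusted p of 0.0573 to 0.180. Ccl9, a ligand of Ccr1, rose in liver at 250 ppm by 0.23 ± 0.08 (adjusted p = 0.0192), from 72.7 to 114.9 CPM in controls to 92.7 to 129.03 CPM, and ended at 0.19 without control 10 or animals 507 or 508 (adjusted p = 0.0508 to 0.0651). Ccl27a and Ccl27b, ligands of Ccr10, fell there by 0.57 ± 0.15 (adjusted p = 0.000799) and by 0.81 ± 0.22 (adjusted p = 0.00212). Ccl27a also fell at 400 ppm 1,4-DCB by 0.41 ± 0.16 (adjusted p = 0.0389), a call that ended without any of controls 1, 4 or 5 or animals 501, 502 or 503. These genes are closely related copies, and how reads were divided between them is uncertain.

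In lung, Ccl4 went the other way from liver. At 30 ppm 1,2-DCB it ran from 4.37 through 5.32 to 9.37 CPM against 7.19 through 10.9 to 24.7 CPM at 0 ppm, a log2 change of -0.98 ± 0.25 (adjusted p = 0.00898). At 250 ppm the change was -0.65 ± 0.23 (adjusted p = 0.0247), which ended without control animal 4, the highest control, or without 501 or 507 (-0.60 to -0.46, adjusted p = 0.0583 to 0.102). Ccl3 in the same lungs had a log2 change of -0.71 (adjusted p = 0.0587).

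In ovary at 250 ppm, Ccl4 was 43.5, 12.7, 8.91, 19.2, 26.8, 7.94 and 9.43 CPM against 3.86 through 7.71 to 19.6 CPM. Only 501 and 506R exceeded the controls, and the livers of these animals held the lowest Ccl4 of their group. The log2 change of 1.08 ± 0.28 (adjusted p = 0.00548) was 0.70 without 501 (adjusted p = 0.0720). Ccl3 changed by 0.97 ± 0.34 (adjusted p = 0.0392) in ovary, a call that ended in 11 leave-outs, namely without any control other than 4 and 10 or without 501, 505 or 506R. Without control 4, at 24.5 CPM far above the next control at 6.50 CPM, the change was 1.62. In ovary 5 of 7 macrophage probes rose as well, with a median log2 change of 0.97, and their sum ran from 2097 to 5874 CPM against 1267 to 4006 CPM; its part in the result was not tested.

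Among the CXC ligands, Cxcl1, which draws neutrophils, rose in heart. Under 1,4-DCB at 400 ppm it was 4.97, 4.21, 6.47, 4.60 and 6.11 CPM in animals 501 to 505, above all controls at 1.89 through 3.09 to 4.03 CPM (log2 change 0.81 ± 0.23, adjusted p = 0.0149; without 503, 0.72 and adjusted p = 0.0741). At 250 ppm 1,2-DCB it ran from 2.69 through 5.39 to 9.53 CPM against 1.23 through 3.40 to 8.21 CPM (0.66 ± 0.22, adjusted p = 0.0433), a call that 10 of the leave-outs ended: controls 2, 3 and 6 to 10 and animals 503, 506R and 507. Cxcl5, another neutrophil attractant, rose in heart at 400 ppm 1,4-DCB, from 0.740 to 1.65 CPM to 1.33 to 3.61 CPM (1.14 ± 0.35, adjusted p = 0.0206), and lost the call without 501, 503 or 505 (0.94 to 1.16, adjusted p = 0.0646 to 0.0852). The heart library of 501 stands apart, with lung epithelium markers at 765 CPM against a tissue median of 1.16. With all heart libraries that stand apart left out, Cxcl5 changed by 1.17 (adjusted p = 0.0453).

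In lung, Cxcl5 was lower at 10 ppm 1,2-DCB, at 1.84, 2.42, 3.13, 7.51 and 9.70 CPM against 6.37 through 12.2 to 22.7 CPM. Animals 201, 202 and 203 lay below every control, and the change was -1.45 ± 0.39 (adjusted p = 0.0334). It ended without any of controls 3, 7 or 10 or animals 201, 202 or 203 (adjusted p = 0.0506 to 0.160). The changes at 30, 100 and 250 ppm were -1.14, -1.13 and -0.57 (adjusted p = 0.0800, 0.0605 and 0.220).

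Cxcl10, an interferon-induced ligand of the T cell receptor Cxcr3, fell in liver at 30, 100 and 250 ppm 1,2-DCB. Controls ran from 3.68 through 4.91 to 10.6 CPM. At 30 ppm the 5 livers were 3.58, 1.204, 3.17, 2.63 and 1.38 CPM, all below the controls (log2 change -1.26 ± 0.31, adjusted p = 0.00381). At 100 ppm they were 1.12, 4.15, 3.33, 1.48 and 2.52 CPM, 1 of them within the control range (-1.19 ± 0.31, adjusted p = 0.00324). Without control animal 4, the highest control, the changes were -1.09 at 30 ppm (adjusted p = 0.0125) and -1.05 at 100 ppm (adjusted p = 0.00821). The change at 250 ppm was -0.67 ± 0.28 (adjusted p = 0.0408) and ended without any of controls 4, 5 or 8 or animals 501, 505 or 506R (-0.65 to -0.51, adjusted p = 0.0559 to 0.114). Under 1,4-DCB at 400 ppm it was -0.69 ± 0.30 (adjusted p = 0.0790).

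Cxcl12, the ligand of Cxcr4 made by stromal and endothelial cells, moved by small steps in both directions. In liver at 400 ppm 1,4-DCB it was 782, 686, 923, 634 and 772 CPM against 791 through 987 to 1171 CPM (log2 change -0.39 ± 0.09, adjusted p = 0.000906), 1 of the 5 within the control range. At 150 ppm it changed by -0.32 ± 0.10 (adjusted p = 0.0425), a call that ended without any of controls 1, 3, 5 or 7 or animals 401, 402 or 404. At 30 ppm 1,2-DCB it changed by 0.29 ± 0.09 (adjusted p = 0.0213), which ended without 301 (0.26, adjusted p = 0.0597) or 302 (0.23, adjusted p = 0.0998). In heart at 250 ppm 1,2-DCB it fell from 457 to 643 CPM to 301 to 542 CPM (-0.37 ± 0.10, adjusted p = 0.0134), and without animal 501, whose heart library stands apart, the change was -0.29 (adjusted p = 0.0775).

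Among the receptors, Cxcr6, carried by T cells and NK cells, fell in liver under both isomers. At 250 ppm 1,2-DCB it ran from 0.289 through 0.497 to 0.935 CPM, below all controls at 1.08 through 2.00 to 6.12 CPM (log2 change -2.04 ± 0.39, adjusted p = 1.24e-05; -1.72 without control animal 4). For 400 ppm 1,4-DCB the range was 0.490 through 0.634 to 0.779 CPM, again below all controls at 0.838 through 1.79 to 3.75 CPM (-1.47 ± 0.41, adjusted p = 0.00419). The summed T and NK cell markers in these livers ran from 1.75 to 3.22 CPM at 250 ppm against 2.03 to 6.07 CPM, and from 1.45 to 2.91 CPM at 400 ppm against 2.07 to 4.63 CPM. Of 6 marker probes tested, 0 were called at 250 ppm and 1 lower at 400 ppm; their part in the result was not tested. In the livers at 400 ppm 1,4-DCB Cxcr4, the receptor of Cxcl12, fell from 0.321 to 1.25 CPM to 0.0613 to 0.467 CPM (-1.76 ± 0.58, adjusted p = 0.0148), a low probe whose call ended without animal 504 (-1.51, adjusted p = 0.0533).

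In lung at 250 ppm 1,2-DCB, 4 chemokine receptors of lymphocytes and dendritic cells were lower. Cxcr4, which most leukocytes carry, ran from 22.5 through 29.1 to 40.7 CPM against 37.6 through 45.8 to 53.6 CPM (log2 change -0.62 ± 0.12, adjusted p = 3.75e-05). Ccr7, by which dendritic cells and naive T cells reach lymph nodes, ran from 3.77 to 7.43 CPM against 5.49 to 11.8 CPM (-0.73 ± 0.22, adjusted p = 0.00646). It was already lower at 100 ppm, at 4.28, 5.22, 3.01, 3.20 and 6.63 CPM (-0.99 ± 0.24, adjusted p = 0.00423). These groups overlapped with the controls in their upper animals.

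Cxcr6 in the same lungs fell by 0.81 ± 0.20 on the log2 scale (adjusted p = 0.000952). Ccr6, the receptor of Ccl20 on dendritic, B and T cells, changed by -0.66 ± 0.24 at 250 ppm (adjusted p = 0.0262) and by -0.90 ± 0.26 at 30 ppm (adjusted p = 0.0249). Its call at 250 ppm ended without control 2 or animals 503 or 506R, and that at 30 ppm without controls 2 or 4 or animals 301, 302 or 303. Dendritic cell markers were lower in these lungs, 3 of 3 probes, and their sum ran from 4.96 to 16.4 CPM at 250 ppm against 28.6 to 40.5 CPM, without overlap. T and NK cell markers were lower for 3 of 6 probes, with a sum of 26.3 to 45.6 CPM against 38.2 to 141.9 CPM. The part of these cells in the receptor changes was not tested.

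In heart at 150 ppm 1,4-DCB, both tested Ccr2 probes and 3 other members were called higher and Il13ra1 lower, and all 6 calls ended without animal 405. Probe Ccr2_84171 was 5.13, 4.19, 5.39, 3.62 and 18.4 CPM in animals 401 to 405 against 1.65 through 2.48 to 3.61 CPM. All 5 hearts stood above the controls, 404 only just, with a log2 change of 1.53 ± 0.40 (adjusted p = 0.00377). Ccl24 was 12.02, 10.5, 11.5, 9.61 and 22.5 CPM against 5.48 to 9.35 CPM (0.77 ± 0.20, adjusted p = 0.00435), again without overlap.

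Probe Ccr2_31936 changed in these hearts by 1.10 ± 0.37 (adjusted p = 0.0204), Il18 by 1.08 ± 0.34 (adjusted p = 0.0138), Il1r1 by 0.43 ± 0.13 (adjusted p = 0.0135) and Il13ra1 by -0.37 ± 0.12 (adjusted p = 0.0203). Without animal 405 the changes were 0.84 for Ccr2_84171, 0.65 for Ccr2_31936, 0.49 for Ccl24, 1.00 for Il18, 0.27 for Il1r1 and -0.20 for Il13ra1, with adjusted p of 0.0960 to 0.310. Il18 in the heart of 405, at 5.86 CPM, was close to 401, 402 and 403 at 5.77, 5.49 and 5.10 CPM. With both libraries of this group left out that stand apart, 403 and 405, 0 members were called. B cell, fibroblast and smooth muscle markers were higher in this group, for 3 of 3, 6 of 7 and 3 of 3 probes. The heart of 405 also held hepatocyte markers at 583 CPM against a tissue median of 12.7, and that of 403 lung epithelium markers at 187.3 CPM against 1.16. The part of these cells in the calls was not tested.

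Of the interleukins, Il1f9, interleukin-36 gamma, an epithelial cytokine of the interleukin-1 family, had the smallest adjusted p in lung. At 250 ppm 1,2-DCB it was 25.4, 49.5, 51.5, 16.5, 51.9 and 79.5 CPM in animals 501, 503, 504, 506R, 507 and 508 against 3.87 through 8.34 to 31.3 CPM. The lungs of 503, 504, 507 and 508 exceeded every control, with a log2 change of 2.05 ± 0.31 (adjusted p = 2.64e-07), and no lower concentration was called. In the 1,4-DCB series, with a control mean of 5.73 CPM, the means were 10.8, 9.21, 11.2, 13.8 and 11.6 CPM from 1 to 400 ppm. None was called; the changes at 150 and 400 ppm were 1.28 ± 0.33 (adjusted p = 0.0530) and 1.03 ± 0.33 (adjusted p = 0.0809).

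Il4, the cytokine of T helper 2 cells and mast cells, was higher in lung at 4 of 5 concentrations of 1,2-DCB, by probe Il4_31858. Controls ran from 1.39 through 2.97 to 4.82 CPM. The lungs were 7.60, 5.64, 6.61, 4.71 and 4.76 CPM at 10 ppm and 7.93, 4.61, 5.42, 7.97 and 5.13 CPM at 30 ppm. At 10 ppm animals 201, 202 and 203 exceeded every control, and at 30 ppm all but 302, with log2 changes of 1.06 ± 0.27 (adjusted p = 0.0242) and 1.14 ± 0.27 (adjusted p = 0.00433).

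The Il4 changes at 100 and 250 ppm were 1.11 ± 0.27 (adjusted p = 0.00528) and 0.87 ± 0.26 (adjusted p = 0.00682), so the rise did not grow with concentration. The call at 10 ppm ended without control 3 or animals 201 or 203 (0.94 to 1.01, adjusted p = 0.0505 to 0.104), that at 100 ppm without 403 (0.73, adjusted p = 0.121) and that at 250 ppm without 501 (0.69, adjusted p = 0.0517). The group means under 1,4-DCB were 2.68 to 3.60 CPM against 3.62 CPM at 0 ppm, none called. These 4 contrasts share the same 10 controls, and the second Il4 probe was too low to test.

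Il1b, the fever cytokine of macrophages, fell in liver under both isomers. Controls of 1,2-DCB ran from 3.22 through 5.16 to 33.1 CPM, the top value being animal 4. At 100 ppm the 5 livers were 2.43, 2.07, 2.72, 2.51 and 1.83 CPM, below every control (log2 change -1.95 ± 0.43, adjusted p = 0.000589). At 30 and 250 ppm the changes were -1.69 ± 0.42 (adjusted p = 0.00456) and -1.89 ± 0.39 (adjusted p = 5.28e-05). Without animal 4 they were -1.08 at 30 ppm (adjusted p = 0.0342), -1.38 at 100 ppm (adjusted p = 0.00316) and -1.29 at 250 ppm (adjusted p = 0.000636), smaller but still called. Il1b at 400 ppm 1,4-DCB ran from 1.44 through 1.99 to 3.30 CPM against 3.03 through 4.43 to 12.6 CPM (-1.48 ± 0.43, adjusted p = 0.00515).

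Il18, an interleukin-1 family cytokine of macrophages and epithelium, was lower at 250 ppm 1,2-DCB in lung, from 46.9 to 69.9 CPM to 38.7 to 58.4 CPM (-0.41 ± 0.15, adjusted p = 0.0327). In ovary it ran from 15.5 to 54.2 CPM against 37.6 to 81.4 CPM (-0.47 ± 0.16, adjusted p = 0.0364). Each call ended in 7 leave-outs: in lung without controls 1, 2 or 6 or animals 501, 504, 506R or 508, and in ovary without controls 4, 5, 8 or 9 or animals 505, 506R or 507.

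Il4ra, the receptor chain shared by interleukin-4 and interleukin-13, was the member called most often, in 8 contrasts and always lower, by probe Il4ra_84184. In lung its controls ran from 174 through 210 to 234 CPM. At 30 ppm 1,2-DCB the lungs were 142.2, 137.9, 149.6, 152.6 and 133.03 CPM, all below the controls (log2 change -0.53 ± 0.10, adjusted p = 0.000369), and at 100 ppm 173.2, 144.7, 162.1, 135.96 and 170.7 CPM, again all below (-0.39 ± 0.10, adjusted p = 0.0110; without 404, -0.34 and adjusted p = 0.0687). At 10 ppm the change was -0.37 ± 0.10 (adjusted p = 0.0396), which ended without any of controls 3, 4, 5, 9 or 10 or animals 201, 202, 203 or 205, and at 250 ppm -0.21 (adjusted p = 0.0950). Lung thus had more Il4 and less Il4ra at 10, 30 and 100 ppm.

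In liver, Il4ra at 250 ppm 1,2-DCB ran from 24.7 through 31.5 to 36.7 CPM, below all controls at 39.4 through 44.8 to 53.1 CPM (log2 change -0.54 ± 0.11, adjusted p = 2.08e-05). At 400 ppm 1,4-DCB it was 30.3, 28.8, 28.4, 22.5 and 30.6 CPM, below all controls at 36.4 through 44.03 to 55.3 CPM (-0.63 ± 0.12, adjusted p = 1.73e-05). At 10 ppm 1,2-DCB it was 31.1, 35.04, 38.7 and 29.5 CPM, also below the controls (-0.41 ± 0.12, adjusted p = 0.0325; ended without control 6 or animals 201, 202 or 205). At 30 ppm the change was -0.33 ± 0.11 (adjusted p = 0.0397), ended without controls 1, 4, 6 or 10 or animals 301, 303, 304 or 305, and at 100 ppm -0.17 (adjusted p = 0.316). In ovary at 250 ppm it was 144.8, 147.1, 129.5, 118.8, 101.2, 79.8 and 106.6 CPM against 114.3 through 159 to 245 CPM (-0.57 ± 0.17, adjusted p = 0.0150; without 507, -0.49 and adjusted p = 0.0528).

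Il13ra1, the partner chain with which Il4ra binds interleukin-13, was lower in liver too. At 250 ppm it ran from 125.5 through 149.1 to 164 CPM, below all controls at 165 through 188.5 to 270 CPM (log2 change -0.42 ± 0.10, adjusted p = 0.000211). The changes were -0.34 ± 0.10 at 100 ppm (adjusted p = 0.0112) and -0.31 ± 0.11 at 400 ppm 1,4-DCB (adjusted p = 0.0174; without 501, -0.27 and adjusted p = 0.0536). In lung at 250 ppm it was -0.30 ± 0.11 (adjusted p = 0.0228), ended without control 3 or animals 501 or 507.

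Il1r1, the signalling receptor of interleukin-1, was lower in lung at 10 and 30 ppm 1,2-DCB and in liver at both highest concentrations. In lung at 30 ppm it was 107.2, 106.03, 82.9, 104 and 72.3 CPM, below all controls at 109.04 through 120 to 149.4 CPM (log2 change -0.39 ± 0.09, adjusted p = 0.00328; without 305, -0.31 and adjusted p = 0.0555). At 10 ppm the change was -0.33 ± 0.09 (adjusted p = 0.0360), ended without controls 2, 3 or 9 or animals 201, 203, 204 or 205. In liver at 250 ppm it ran from 50.3 to 93.4 CPM against 75.5 to 136.1 CPM (-0.67 ± 0.18, adjusted p = 0.00123). At 400 ppm 1,4-DCB it was 45.7, 45.2, 43.9, 65.4 and 44.9 CPM against 44.9 through 100.1 to 119.1 CPM (-0.84 ± 0.20, adjusted p = 0.000583). The highest of these, in animal 504, lay above the 2 lowest controls, the second of them at 57.2 CPM.

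Il27ra, the receptor chain of interleukin-27, fell in liver at 400 ppm 1,4-DCB, from 2.75 through 3.62 to 4.76 CPM to 1.44 through 2.39 to 2.71 CPM without overlap (-0.75 ± 0.23, adjusted p = 0.00838). Csf1r, the receptor of the macrophage growth factors Csf1 and interleukin-34, was lower in heart at 250 ppm 1,2-DCB, at 0 through 0.273 to 0.592 CPM against 0.239 through 0.836 to 2.88 CPM (-1.63 ± 0.50, adjusted p = 0.0266). The probe is near its floor, and the call ended without control 4 or animals 503, 505 or 506R (-1.58 to -1.27, adjusted p = 0.0553 to 0.0953).

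**Figure D4:**
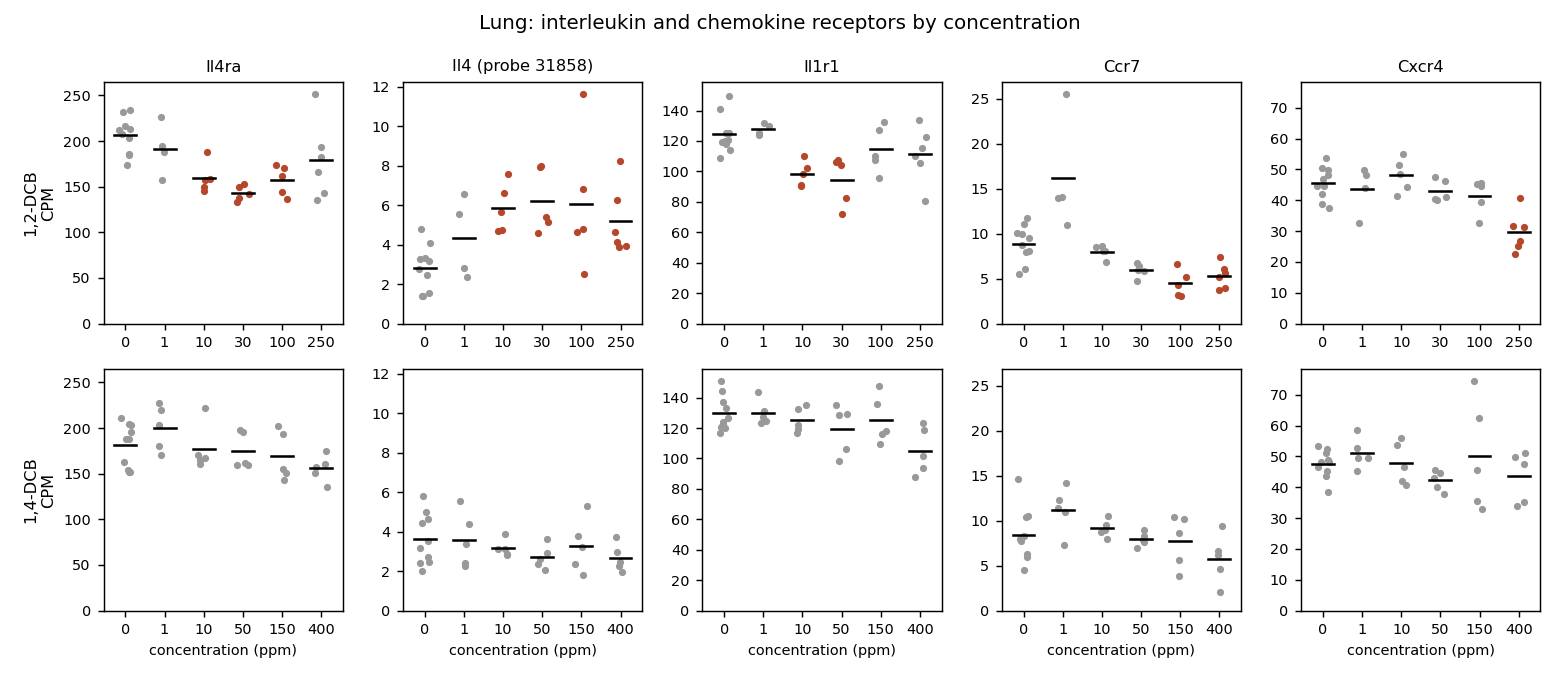
CPM of Il4ra, Il4 (probe Il4_31858), Il1r1, Ccr7 and Cxcr4 in each lung by concentration of 1,2-DCB (upper row) and 1,4-DCB (lower row). Points are animals, coloured where called against 0 ppm, and black lines are means; Il4 is coloured from 10 to 250 ppm 1,2-DCB and Il4ra from 10 to 100 ppm, and no point of the lower row is coloured.

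The plot of lung members shows these low-concentration changes beside the receptor changes of the highest concentration. The 15 probes tested but never called were those of Ccl6, Ccl11, Ccl17, Cxcl2, Cxcr2, Cxcr5, Il11, Il1a, Il1f8, Il2rg, both of Il4i1, and further probes of Ccl22, Ccr2 and Il4ra. The further Il4ra probe was tested in lung only, at 0.323 CPM in controls, and gave -1.28 ± 0.77 at 30 ppm (adjusted p = 0.475).

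The isomers could be compared at matched concentrations only at 1 and 10 ppm, as the difference of their changes from their own controls. In these 10 contrasts edgeR called 0 of 328 member tests, where 0.321% of all tests passed; DESeq2 also called 0, and 29 had an unadjusted p under 0.05. For the members called at 10 ppm 1,2-DCB, the differences (1,4-DCB minus 1,2-DCB) came with wide intervals, and adjustment was over all probes of the contrast. In lung, that of Il4 was -1.23 (95% interval -2.01 to -0.45, adjusted p = 0.209) and that of Il4ra 0.34 (0.05 to 0.62, adjusted p = 0.573). Il1r1 gave 0.28 (0.03 to 0.53, adjusted p = 0.6245) and Cxcl5 0.40 (-0.62 to 1.41, adjusted p = 0.987). In liver, Il4ra gave 0.41 (0.08 to 0.75, adjusted p = 0.248). A difference was thus not shown for any member, nor is likeness shown.

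Between the 0 ppm animals of the series, 2 members were called in ovary, where 6.16% of all probes passed. Il27ra was lower in the 1,4-DCB series by -0.61 ± 0.15 (adjusted p = 0.00827) and Il18 by -0.48 ± 0.14 (adjusted p = 0.0321). In the other 4 tissues edgeR called 0 members, where 0.901% of all tests passed; DESeq2 called 2, and 26 had an unadjusted p under 0.05. The series and its handling cannot be told apart.

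Whether a change differed between tissues was tested in joint fits of tissue pairs, whose values need not equal those fitted per tissue. Against lung, the liver change at 250 ppm 1,2-DCB differed for 18 of 44 members, where 38.6% of all probes passed. The lung minus liver difference was -3.64 ± 0.57 for Ccl3, -3.03 ± 0.49 for Ccl4 and -1.98 for Ccr2_31936, while that of Il1b was 1.76 and that of Cxcr6 1.46. Against heart the liver differed for 11 of 36, where 32.4% passed, with -2.20 for that Ccr2 probe and -2.33 for Ccl3. Against kidney the liver differed for 8 of 35, where 31.8% passed, and against ovary for 10 of 39, where 33.2% passed; liver minus kidney was 2.98 for Ccl4, and liver minus ovary 2.10 for Ccl3. Ccl3 and the probes Ccr2_31936 and Ccr2_84171 were thus called as larger in liver against each of the other 4 tissues, and Ccl4 against all but heart (-1.51, adjusted p = 0.0509). A further Ccr2 probe, Ccr2_29976, was tested in 3 tissues and called in none against 0 ppm. With the animal as a block the heart against liver difference of Ccl3 (adjusted p = 0.0573) and the liver against ovary difference of Ccl4 (adjusted p = 0.0847) were no longer called.

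At 400 ppm 1,4-DCB the change differed between lung and liver for 9 members, where 24.6% of all probes passed, among them Il4ra (0.60), Il1b (1.84), Cxcr6 (1.61) and Cxcr4 (1.78), all less lowered in lung. Between heart and liver it differed for 11, where 23% passed, and with the animal as a block for 7. Liver and kidney differed for 1, Cxcl12 (-0.67), where 15.5% passed, and liver and ovary for 2, Cxcr4 (-2.07) and Il1r1 (-0.75), where 15.5% passed, with 1 under the block. Lung and heart differed for 2 members at 250 ppm, Ccl4 (-1.64) and Cxcl5 (-1.39), where 10.4% passed. At 400 ppm they differed for 2, Ccl9 (4.80, a probe averaging 0.179 and 0.225 CPM in these tissues at 0 ppm, scaled over all 5 tissues) and Ccl27a (-0.58), where 5% passed, and for 1 with the block. The Ccl12 rises of lung and heart were not called as different, at 0.34 ± 0.47 for 250 ppm.

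In unexposed animals the members were spread unevenly over the tissues. Each tissue was set against the mean of the other 4 in one fit with 37 members tested, scaled over all 5 tissues together. CPM of unexposed tissues are given on this common scale here, so they differ from those above, which were scaled within a tissue. Lung had 27 higher, where 41.2% of all probes were higher, and 6 lower, where 41.4% were lower. Liver had 19 higher, against 39.6%, and 12 lower, against 47.1%. Ovary had 9 higher, against 40%, and 11 lower, against 45.2%. Under RLE scaling ovary had 14 higher, against 45.6%, and 10 lower, against 40%. Heart had 7 higher, against 41.1%, and 20 lower, against 42.3%. Kidney had 6 higher, against 36.9%, and 21 lower, against 37.2%. RLE scaling moved the median of all probes from -0.04 to -0.19 in heart and from -0.10 to 0.05 in ovary. Of the 48 probes, 33 averaged over 1 CPM in lung, 26 in liver, 25 in ovary, 23 in kidney and 21 in heart.

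The largest differences in lung were those of Ccl17, a ligand of Ccr4, at 41.2 ± 6.46 CPM (SD, n = 20; log2 difference 4.71 ± 0.20), Il1a, interleukin-1 alpha (4.78 ± 0.27), and Ccr6 (4.60 ± 0.27). Ccl17 averaged 4.38 CPM in ovary, 3.15 in kidney, 0.696 in liver and 0.638 in heart. Liver was led by Ccl9 at 199 CPM (95.7 on liver's own scale), against 0.147 to 0.225 CPM elsewhere (9.99 ± 0.15), Il1a (4.63) and Ccl24 (2.76). Il1a averaged 4.68 CPM in lung and 4.34 in liver, 0.374 in ovary, 0.0549 in heart and 0 in kidney. On the tissues' own scales its mean was 6.04 CPM in lung and 2.09 in liver.

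Heart was led by Ccl12 (1.88), Ccl24 (1.83) and Il27ra (0.86). Ccl12 averaged 23.3 CPM in heart, 21.2 in ovary, 11.3 in lung, 8.59 in kidney and 0.753 in liver on the common scale. This order rests on the scaling: within each tissue's own scale Ccl12 averaged 48.3 CPM in ovary, 14.6 in lung, 13.9 in heart, 11.95 in kidney and 0.364 in liver. So does the place of Il27ra. It averaged 10.96 CPM in heart, 9.57 in lung and 7.58 in ovary on the common scale, but 6.47, 12.4 and 17.3 CPM on their own. Ovary was led by Il1f8, interleukin-36 beta, at 1.83 CPM against 0 in lung and heart (6.54 ± 0.35), Ccl12 (1.75) and Ccl17 (0.67). Kidney was led by Il1f8 (1.62), Il11 (1.07) and Cxcl10 (1.01), each of which averaged more in another tissue on the common scale. Il1f8 was at 0.114 CPM in kidney against 1.83 in ovary. Il11 was at 0.750 CPM against 1.61 in lung, and Cxcl10 at 5.34 against 11.6 in liver. Cxcl12 was found throughout, at 1936 CPM in liver, 912 in heart, 628 in kidney, 517 in lung and 266 in ovary on the common scale, and at 932, 538, 829, 668 and 605 CPM in the same tissues on their own scales, where heart came last.

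**Figure D5:**
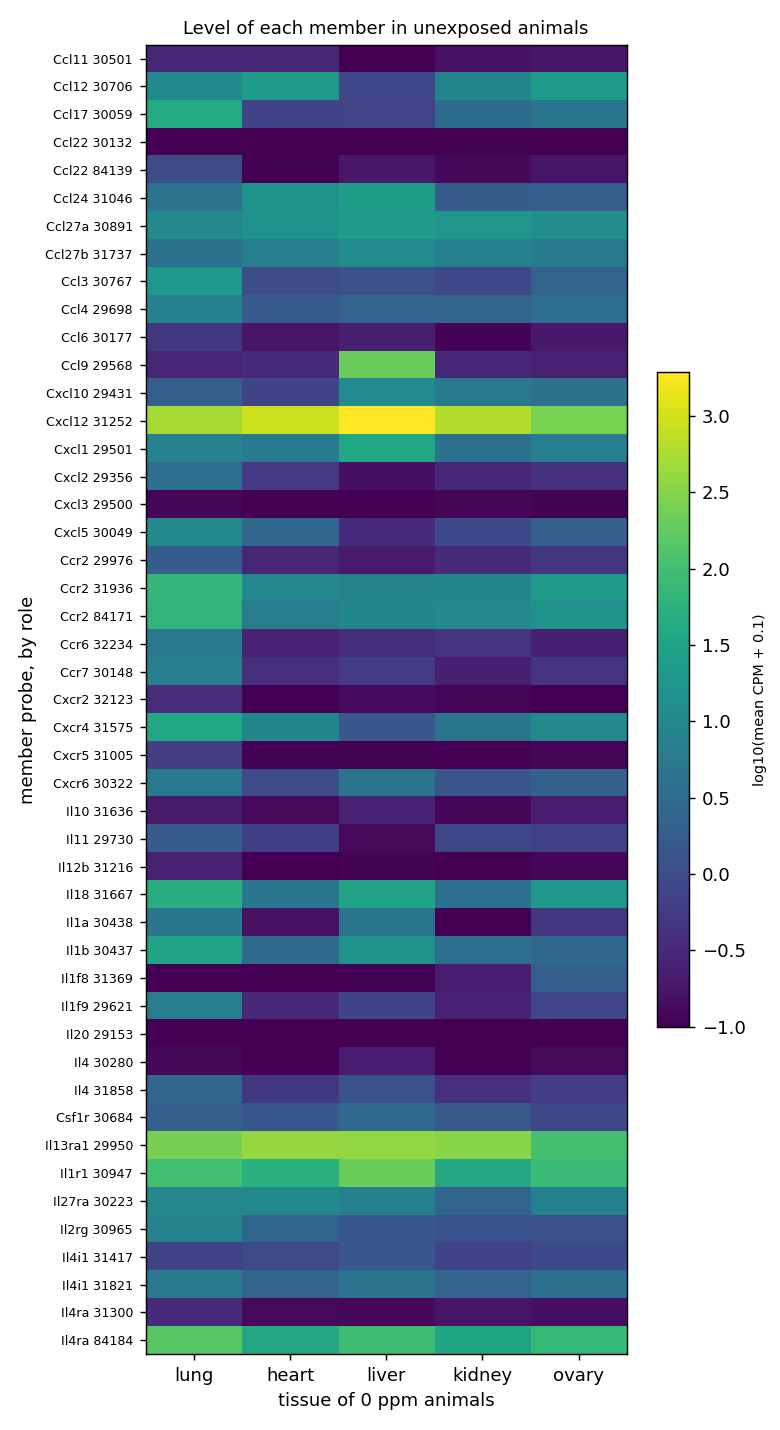
Mean level of 47 member probes in the 0 ppm animals of both series, as log10 of CPM plus 0.1, by tissue, scaled over the 5 tissues together. Of those drawn, 32 are over 1 CPM in lung and 20 in heart; levels compare a probe across tissues, not probes with each other.

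The map of unexposed levels shows Ccl3 and Ccl4, which rose in exposed liver, at 1.04 and 2.10 CPM in unexposed liver and at 19.1 and 7.61 CPM in unexposed lung.

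The partners of these signals in the cell were followed in lists of related genes. In liver at 250 ppm 1,2-DCB, NF-kappaB and interleukin-1 relay genes had 0 of 17 probes higher and 7 lower, where 25.1% of all probes were higher and 24.6% lower, with a median log2 change of -0.33 against -0.02 over all probes; the inhibitor Nfkbia (-0.92), the subunit Rela (-0.73) and the kinase Chuk (-0.43) were among them. JAK and STAT genes had 0 of 11 higher and 5 lower, among them Stat5b (-0.90), Socs2 (-2.34), Stat5a (-0.61) and Stat3 (-0.30). Of the tumour necrosis factor family 4 of 9 were lower, among them Fasl (-4.32) and Ltb (-1.09). Leukocyte adhesion genes went the other way, with 4 of 7 higher and 0 lower, among them Vcam1 (0.90) and Icam1 (0.60). Pf4, a platelet chemokine outside the symbols used here, rose by 3.03. It comes from a list of other cytokines and chemokine-like factors whose counts are not given here. Nor is the number of tumour necrosis factor family probes that rose. Acute phase genes had 2 of 12 higher and 7 lower, among them Saa1 (-3.06), Saa2 (-3.50) and Crp (-0.93).

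At 400 ppm 1,4-DCB in liver, 4 of 11 JAK and STAT probes were lower and 0 higher, led by Stat5b (-0.59), where 18% of all probes were higher and 13.6% lower, and 2 of 17 NF-kappaB probes were lower, Nfkbia (-0.75) and Tab2 (-0.52). Adhesion genes had 3 of 7 lower, among them Itgal (-1.45) and Vcam1 (-0.58), and 0 higher. In lung at 250 ppm 1,2-DCB, 7 of 17 NF-kappaB probes were lower and 1 higher, among them Nfkbia (-0.36) and Relb (-0.41), where 17.6% of all probes were higher and 15% lower, with 2 of 11 JAK and STAT probes lower and 2 of 8 adhesion probes lower. No list was tested as a whole.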

How the data were processed

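What the authors deposited are read counts for each probe of a targeted TempO-Seq panel for mouse (S1500+ v1.2), in which detector oligonucleotides ligated on a target RNA are amplified and sequenced. Per the labels, the authors adjusted these counts for attenuation; 59 probes hold only multiples of a whole-number factor, 0 of them members. The aligner, per the submitters' processing notes, was Bowtie 1.3.1; manifest and build are not given in the sources used here. Groups follow tissue, compound and concentration as labelled, and animal numbers pair tissues within a series. Per tissue, probes passing filterByExpr were fitted in 12 groups with TMM scaling and tested two-sided in edgeR 4.0.16 under R 4.3.3 (quasi-likelihood), with Benjamini-Hochberg adjustment over all probes of a contrast (threshold 0.05). Tissue comparisons used joint fits. CPM used effective library sizes, scaled within a tissue, or over the 5 tissues together for levels compared between unexposed tissues. DESeq2 1.42.0 was an alternative, and the pipeline was tested on simulated data. Every member called against 0 ppm, or between the series at 0 ppm, is named, except 1 that is counted but not reported here nor drawn in the maps, with up to 3 leading members per unexposed tissue; differences between tissues and between isomers are given for examples picked after their values were seen. The members, the 21 lists of other genes and the comparisons were chosen with earlier results of these data known, and the libraries that stand apart were picked after seeing the data. Paralogous probes may share reads.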

Additional observations from a re-analysis of the deposited data

Results flagged for a closer look

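Within groups of 4 to 10 animals, the sets of values behind the called members were checked for an animal whose gap to the nearest of the others is large against the whole range. In 21 sets, 16.3% of those checked, the gap passed Dixon's 95% critical value. About 1 in 20 would pass by chance among independent, normally distributed values. These sets share animals and were taken because their member was called, so that rate is no firm reference for them.

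Control animal 4 of the 1,2-DCB series accounts for 12 of them, in 4 tissues. It had the highest lung Ccl4 (24.7 CPM) and Cxcr6 (17.1), the highest heart Ccl12 (60 CPM), Csf1r (2.88) and Cxcl1 (8.21), and the highest ovary Ccl3 (24.5 CPM). In liver it had the highest Il1b (33.1 CPM), Ccl3 (2.35), Ccl4 (3.58), Cxcr6 (6.12) and Ccr2 (11.2 and 13.5 for Ccr2_31936 and Ccr2_84171).

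Among exposed animals, the lung of 503 at 250 ppm 1,2-DCB stood apart in Il18 (58.4 CPM) and the heart of 506R in Ccl12 (83.5). At 150 ppm 1,4-DCB the heart of 405 stood apart in probe Ccr2_84171 (18.4 CPM) and Ccl24 (22.5), and that of 404 in Il18 (1.71). At 400 ppm 1,4-DCB the liver of 504 stood apart in Il4ra (22.5 CPM) and Il1r1 (65.4). Among the 1,4-DCB controls, the liver of animal 2 stood apart in Ccl24 (20.8 CPM) and that of animal 3 in Cxcr6 (3.75).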

How the results depend on the processing

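Of 76 calls against 0 ppm or between the series, 47 were kept under every alternative other than leaving out an animal, 33 of the 74 against 0 ppm were kept whichever animal was left out, and 0 reversed. Member counts that moved by over 1.5 times were these. With all libraries: lung 10 ppm 2, liver 10 ppm 0 and 30 ppm 2, kidney 250 ppm 6, the other 32 contrasts 6, lung against heart 1 at 250 ppm and 1 at 400 ppm, lung against liver 4 and heart against liver 5 at 400 ppm. With the groups of the same compound only: lung 10 ppm 1 and 400 ppm 4, heart 250 ppm 2 and 400 ppm 5, liver 10 ppm 0, ovary 250 ppm 2, the other contrasts 4. With DESeq2: lung 100 ppm 5 and 400 ppm 2, liver 10 ppm 2, the other contrasts 4, series difference 5 against 2. With attenuation undone: lung 400 ppm 2, the other contrasts 1. With RLE scaling: liver against ovary 4 at 400 ppm. Without the libraries that stand apart: lung 10 ppm 2, heart 150 ppm 0, the other contrasts 2. The causes were not tested.

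The replicate block could be fitted only between tissues, where animal numbers pair the samples. At 400 ppm it gave 1 for lung against heart, 7 for heart against liver and 1 for liver against ovary, and moved no other count of called members by over 1.5 times in the tissue pairs described; heart against kidney, not described, went from 0 to 1 at 250 ppm and from 1 to 0 at 400 ppm. In unexposed ovary, RLE scaling gave 14 members higher and 10 lower against 9 and 11.

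Leaving out each animal in turn, the counts ran in lung from 0 to 4 at 10 ppm (0 without control 3, 201 or 203), 4 to 5 at 30, 2 to 4 at 100, 6 to 12 at 250 (6 without 501) and 1 to 2 at 400 ppm. In heart they ran from 1 to 5 at 250 ppm (1 without 506R, 2 without 503), 0 to 8 at 150 (0 without 405) and 0 to 4 at 400 ppm (0 without 503). In liver they ran from 0 to 2 at 10 ppm (0 without 201, 202 or 205), 2 to 5 at 30 (2 without 301), 3 to 4 at 100, 12 to 15 at 250, 0 to 1 at 150 and 9 to 11 at 400 ppm. In kidney at 400 ppm they ran from 0 to 1, and in ovary at 250 ppm from 2 to 5 (2 without control 5 or 9, 501, 505, 506R or 507). Depth limits the low probes: 9 members never reached 50 counts in any library, and a missed call there says little.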
